A study of Mus musculus with 12 samples.

Results

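The genes described are 6 matrix metalloproteinases (Mmp2, Mmp3, Mmp9, Mmp12, Mmp13 and Mmp14) and the 4 tissue inhibitors of metalloproteinases (Timp1, Timp2, Timp3 and Timp4), chosen by symbol from the 18505 genes of an RNA-seq table of mouse skin. All 10 had values in the table and all 10 passed the filter on low expression. The study asked how Banzhilian formula (BZLF), an extract of traditional Chinese medicinal materials, acts on psoriasis-like lesions. The lesions were raised on the shaved backs of wild-type male BALB/c mice, 5 to 6 weeks old at the start, with cream of imiquimod (IMQ), an agonist of Toll-like receptor 7 that is widely used to model psoriasis. Skin was taken on day 10 from 3 groups of 4 samples each.

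The control group received petroleum jelly and no IMQ. The IMQ + NS group received IMQ cream for 6 h and was then covered with sodium chloride solution (NS). The IMQ + BZLF group received the same cream for the same time and was then covered with BZLF. According to the methods, all treatments were repeated once daily until skin was taken on day 10. Both IMQ groups wore gauze and film over the cover, which was not described for the control group, so the IMQ effect and that of the dressing cannot be told apart. The labels do not say which BZLF dose the sequenced skin had received, nor that each sample came from its own mouse, so the p-values measure the spread between these samples. Sample values are given in the order of replicates 1 to 4, as FPKM, the number of fragments scaled to transcript length and to the library's total.

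Matrix metalloproteinases are zinc-dependent endopeptidases that cut collagens, laminins, proteoglycans and many growth factors and chemokines. Most are secreted as inactive proenzymes and become active once the propeptide is removed by another protease. TIMPs bind the active site and so hold the enzymes in check, and TIMP2 also takes part in the activation of pro-MMP-2 at the cell surface by MMP-14. In skin, fibroblasts, keratinocytes, macrophages and neutrophils supply different members of the family, and these genes are known for roles in wound repair, hair growth and inflammation. The values below are mRNA levels, which carry no information on proenzyme activation.

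Mmp13, Mmp12 and Mmp3, 3 of the 6 metalloproteinase genes, sit in the metalloproteinase cluster of chromosome 9. On GRCm38 (mm10), the build named in the submitters' processing notes, GENCODE M21 places Mmp13 at chr9:7272514-7283331, Mmp12 at chr9:7344381-7369499 and Mmp3 at chr9:7445822-7455975, all on the plus strand. The promoter stretches of these genes are shown because Mmp13 on the one hand and Mmp3 and Mmp12 on the other moved in opposite directions with IMQ, and that of Timp1 because Timp1 was the inhibitor that rose. Each line gives the 120 bases before an annotated start site in RefSeq (GRCm38.p6), 5′ to 3′ on the gene's strand. Every TGANTCA (the letters of the AP-1 element) and every TATAAA (those of the TATA box) is in capitals, whatever its distance from the start.
Mmp13, chr9:7272394-7272513, plus strand: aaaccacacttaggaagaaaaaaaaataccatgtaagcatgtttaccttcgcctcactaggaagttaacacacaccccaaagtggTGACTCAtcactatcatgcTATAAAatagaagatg
Mmp3, chr9:7445702-7445821, plus strand: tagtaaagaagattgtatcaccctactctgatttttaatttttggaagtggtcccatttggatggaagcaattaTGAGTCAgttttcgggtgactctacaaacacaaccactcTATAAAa
Mmp12, second annotated start, chr9:7347254-7347373, plus strand: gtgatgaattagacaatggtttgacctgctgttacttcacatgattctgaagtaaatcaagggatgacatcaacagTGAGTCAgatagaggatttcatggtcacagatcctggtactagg
Timp1, chrX:20870046-20870165, plus strand: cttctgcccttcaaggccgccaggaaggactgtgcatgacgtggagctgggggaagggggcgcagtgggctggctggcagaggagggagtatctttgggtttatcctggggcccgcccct

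Promoter entries matched 8 of the 10 genes, the unmatched being Mmp2 and Mmp9. With the base before the start counted as -1, TGANTCA stood from -35 to -29 in Mmp13, from -46 to -40 in Mmp3 and from -44 to -38 before the second start of Mmp12, and TATAAA stood from -16 to -11 in Mmp13 and from -7 to -2 in Mmp3. Both strands of the 250 bases before each start were searched, and neither motif overlapped the other. Neither set of letters occurred in the windows of Mmp14, Timp1, Timp2, Timp3 and Timp4 or at the first start of Mmp12. Of all 32851 windows of that length, 6.75% held TGANTCA and 12.4% held TATAAA. Thus Mmp13, which rose with IMQ, and Mmp3 and Mmp12, which fell, all held TGANTCA, and a match is a description of the sequence, not of binding.

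Mmp9 (chr2:164940780-164955850, plus strand) encodes gelatinase B, which cuts denatured collagen and type IV collagen and is stored in the granules of neutrophils. The study also measured this member by RT-PCR and, as protein, by Western blot. It reported MMP-9 as raised in the IMQ model, and as lowered by BZLF in both protein and RNA. The RT-PCR primers are shown because they fix which part of the transcript was read in that assay.
Forward primer: tggtcttccccaaagacctg
Reverse primer: cacagcgtggtgttcgaatg
The forward primer lies in coding exon 1 (chr2:164948342-164948361) and the reverse primer in coding exon 2 (chr2:164948975-164948994) of the 3175-base transcript of Mmp9 with the longest coding sequence, where they bound a product of 216 bases. Each matched this transcript at 1 place. The FPKM values below are for the whole gene, not for this product.

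The 12 samples had similar total FPKM, from 444660 to 506622, and 16649 to 16941 genes above 0. The value of a single fragment, read from the lowest expressed genes, was 0.976 to 1.05 times that in control replicate 1, so relative depth was close, while the absolute number of fragments is not carried by FPKM. Control replicate 2 stood apart on the first principal component, which held 76.4% of the variance, at -63.2 against -122 to -116 for the other controls. Its 9 hair matrix and shaft markers summed to 1713 FPKM against 17.3 to 52.0 in the other controls and 6519 to 11446 in the IMQ groups. All 6 skin identity markers, such as Krt10 and Flg, were detected in every group.

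The most abundant transcripts of normal skin in this set were Timp2, at 533 ± 150 FPKM (SD, n = 4), Mmp2, at 349 ± 105, Mmp14, at 209 ± 32.3, and Mmp3, at 145 ± 44.4. Timp3 (86.8 ± 2.74), Timp4 (22.8 ± 9.73), Timp1 (9.99 ± 3.55), Mmp9 (5.44 ± 1.48), Mmp12 (1.44 ± 0.198) and Mmp13 (0.156 ± 0.0673) followed. Samples of neighbouring genes overlapped along the order from Timp2 to Timp3 and between Timp1 and Mmp9, and did not overlap elsewhere. In the IMQ + NS group Mmp2 (157 ± 19.5) and Timp2 (143 ± 8.74) overlapped at the top, Timp1 (22.4 ± 3.44) stood above Timp4 (6.26 ± 1.40) without overlap, and Mmp13 (1.25 ± 0.904) overlapped Mmp12 (0.744 ± 0.484) at the bottom. In the IMQ + BZLF group Mmp9 (1.13 ± 0.293) overlapped Mmp12 (1.26 ± 0.612), with Mmp13 (0.133 ± 0.0602) last.

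**Figure D1:**
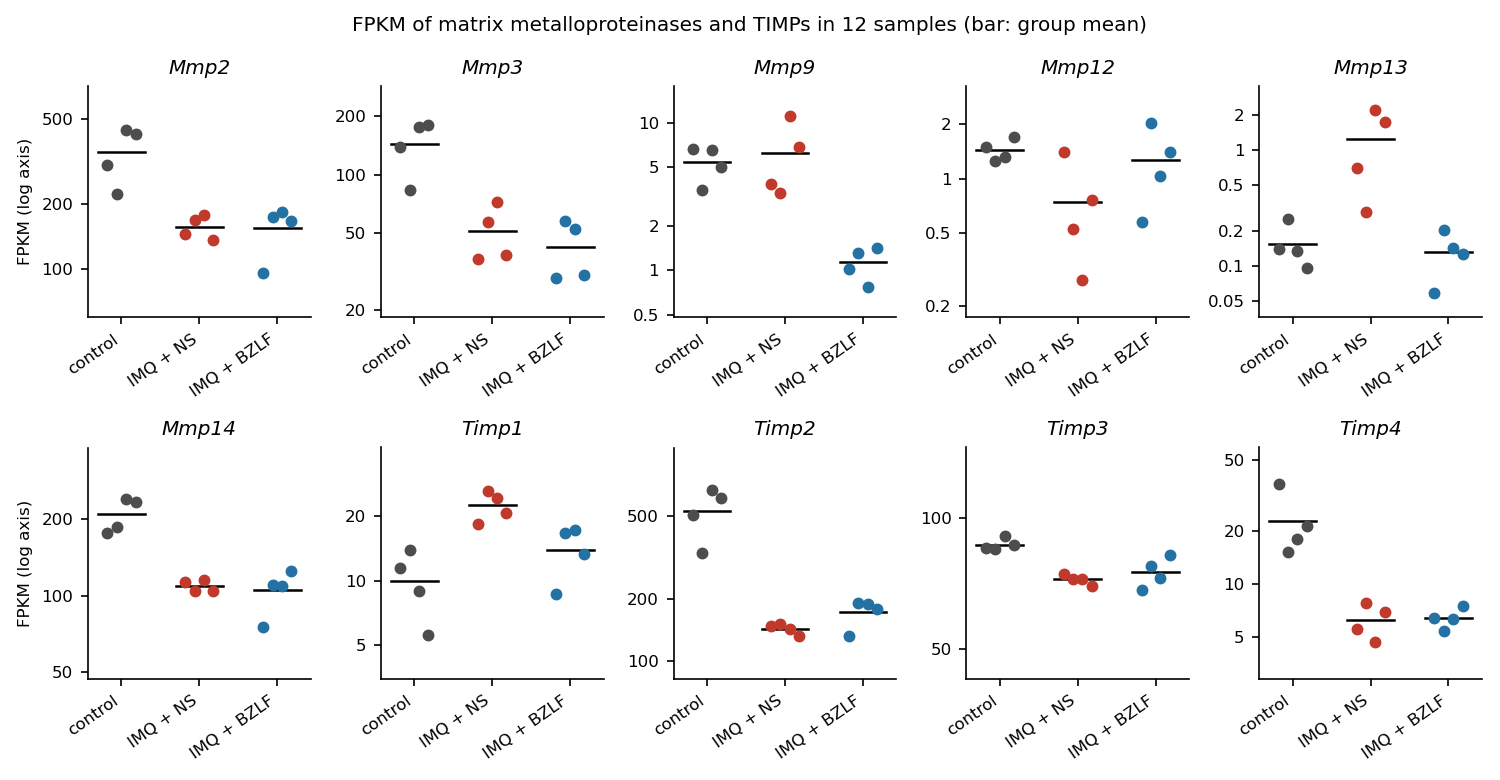
FPKM on a log axis of the 10 genes, with 1 point per sample in replicate order and a bar at the group mean (n = 4 per group). Mmp13 and Timp1 lie higher in all IMQ + NS samples than in all controls, Mmp9 lies at 0.770 to 1.41 FPKM in the IMQ + BZLF samples and at 3.32 or more elsewhere, and Timp2 falls from 332 to 674 FPKM in the controls to 191 or less in both IMQ groups.

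The first comparison, of IMQ + NS lesions with normal skin, asks which members differ in the psoriasis-like lesion. Mmp13 and Timp1 rose, and Mmp2, Mmp3, Mmp12, Timp2 and Timp4 fell. A gene was called differentially expressed (DEG) where limma gave a Benjamini-Hochberg adjusted p below 0.05 and where, in either direction, the fold change passed 1 on the log2 scale. By this rule 2 of the 10 members were higher and 5 lower, against 11.4% higher and 11.0% lower of all 15288 genes tested. The median log2 fold change was -0.98 over the 10 members and 0.05 over all genes. Fold changes are of FPKM + 0.1, which understates the change of genes as low as Mmp13, and fewer cells of a type and less RNA per cell cannot be told apart in whole skin.

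Mmp13 encodes collagenase 3, which cuts fibrillar collagen. Its level in the control samples was 0.140, 0.252, 0.134 and 0.0963 FPKM, and in IMQ + NS it was 0.697, 0.293, 2.24 and 1.75 FPKM. All lesion values lay above all control values, though replicate 2 of the lesions lay close to the highest control. Mmp13 rose by 2.11 on the log2 scale (SE 0.53, adjusted p = 0.00893), and the ratio of the group means without the added constant was 8.0. The call held without each sample in turn, and was lost with a constant of 1, where the log2 fold change was 0.87.

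Mmp9 was not called in this comparison. The controls had 6.68, 3.52, 6.52 and 5.03 FPKM and the IMQ + NS samples 3.87, 3.32, 11.1 and 6.82 FPKM. The lesion samples spanned the control range on both sides. The log2 fold change was 0.08 (95% confidence interval -0.77 to 0.94, adjusted p = 0.862), an interval that reaches nearly a doubling. Its sign turned in 5 of 19 alternative settings, being -0.11 without control replicate 2 and -0.24 without IMQ + NS replicate 3.

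Mmp2 (chr8:92827291-92853420, plus strand) encodes gelatinase A, which connective tissue cells make. It stood at 304, 222, 445 and 426 FPKM in the controls and at 146, 168, 178 and 136 FPKM in IMQ + NS. No lesion value reached the lowest control, that of replicate 2. Mmp2 fell by 1.11 on the log2 scale (SE 0.21, adjusted p = 0.00251). Without control replicate 3 or control replicate 4 it was -0.97 and -0.99, short of the fold limit, with adjusted p = 0.00722 and 0.00803.

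Mmp14 (chr14:54431612-54445364, plus strand) encodes the membrane-anchored collagenase that activates pro-MMP-2. The controls had 176, 187, 239 and 234 FPKM, and the lesions 113, 105, 115 and 105 FPKM. The groups did not overlap and the lesion samples lay close together. At -0.92 on the log2 scale (SE 0.11, adjusted p = 2.06e-04) Mmp14 passed the p threshold and not the fold limit. It passed both without control replicate 1, at -1.001.

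Mmp3 encodes stromelysin 1, which cuts proteoglycans, laminin and fibronectin and activates other proenzymes. Its values were 139, 83.7, 176 and 179 FPKM in normal skin and 36.6, 56.7, 71.8 and 38.5 FPKM in the lesions. The groups did not overlap, control replicate 2 being the control nearest to the lesions. Mmp3 fell by 1.5 on the log2 scale (SE 0.29, adjusted p = 0.00254), and it was called in all 19 alternatives.

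Mmp12 encodes macrophage metalloelastase, which cuts elastin. It was low throughout, at 1.49, 1.25, 1.32 and 1.69 FPKM in the controls and 1.40, 0.527, 0.277 and 0.767 FPKM in IMQ + NS. Lesion replicates 2, 3 and 4 lay below all controls and replicate 1 lay among the controls. Mmp12 gave a value of -1.04 on the log2 scale (SE 0.37, adjusted p = 0.0414). The call rested on all samples being kept, for it held in 2 of 8 fits without a sample, those without control replicate 2 (adjusted p = 0.0447) and IMQ + NS replicate 1 (0.00617), and the other 6 gave adjusted p values of 0.0639 to 0.0955.

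Timp1 (chrX:20870166-20874735, plus strand) encodes the inducible inhibitor that also binds pro-MMP-9. The controls had 11.4, 13.9, 8.97 and 5.61 FPKM and the lesions 18.4, 25.99, 24.3 and 20.7 FPKM. All lesions lay above all controls. Timp1 rose by 1.22 on the log2 scale (SE 0.26, adjusted p = 0.00392). Without control replicate 4, the lowest, the value was 0.97 with adjusted p = 0.00336, short of the fold limit.

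Timp2 (chr11:118301069-118355740, minus strand) encodes the inhibitor that bridges MMP-14 and pro-MMP-2, and it showed the most negative log2 fold change of the 10. It went from 510.0, 332, 674 and 616 FPKM to 147, 151, 142 and 131 FPKM. The lowest control was more than double the highest lesion. Timp2 fell by 1.85 on the log2 scale (SE 0.20, adjusted p = 1.16e-04), and by 2.06 without control replicate 2.

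Timp4 (chr6:115241892-115252205, minus strand), an inhibitor with a narrower tissue range, went from 37.0, 15.2, 18.1 and 21.2 FPKM to 5.58, 7.84, 4.67 and 6.93 FPKM, again without overlap. The log2 fold change was -1.79 (SE 0.27, adjusted p = 7.2e-04), called in all 19 alternatives. Timp3 (chr10:86300372-86349506, plus strand) encodes the inhibitor that binds to the matrix itself, and it moved least of the 4 inhibitors. Its values were 85.2, 84.8, 90.8 and 86.4 FPKM in the controls and 74.4, 72.3, 72.5 and 69.6 FPKM in the lesions. The log2 fold change of -0.27 (SE 0.06, adjusted p = 0.00436) was small beside those of the other TIMPs and was not a DEG, yet the groups did not overlap.

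Timp1, Timp3 and Timp4 each lie within a synapsin gene on the opposite strand (Syn1, Syn3 and Syn2), and exons overlap for Timp3 and Timp4. The mean levels of the 3 synapsin genes were at most 0.501 FPKM in any group. Timp2 also overlaps Cep295nl, on the same strand, and Timp4 also lies within Gm17482, on the opposite strand. Exon overlap was not examined for these genes. Where the counting did not use strand, which is not given in the sources used here, reads of overlapping exons could be counted for either gene. Strand would not separate Timp2 from Cep295nl.

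In all, 2 members were higher and 6 lower without overlap between the groups, against 23.7% and 25.7% of all genes. Without control replicate 2 the DEG counts were again 2 higher and 5 lower.

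Markers of several cell types differed between the same groups. Summed over 10 fibroblast markers, the level ranged from 1494 to 2036 FPKM in the controls and from 566 to 693 FPKM in IMQ + NS, with 6 of 10 markers lower DEGs. The 8 adipocyte markers summed to 4501 to 9871 FPKM against 2051 to 3139 FPKM (6 of 8 lower), and the 8 skeletal muscle markers to 4582 to 11444 FPKM against 860 to 1984 FPKM (8 of 8 lower). The 12 macrophage markers summed to 1909 to 2672 FPKM against 1234 to 1828 FPKM (1 of 12 lower), and the 8 endothelial markers to 116 to 156 FPKM against 88.6 to 109 FPKM (0 of 8 called). The 12 neutrophil markers summed to 15.1 to 18.6 FPKM against 44.6 to 97.1 FPKM, with 10 of 12 higher and Mpo lower. Among keratinocytes, the 7 basal markers summed to 1361 to 1833 FPKM against 3387 to 5476 FPKM (3 of 7 higher DEGs), and the 4 hyperproliferative markers to 189.7 to 616 FPKM against 2344 to 4207 FPKM (4 of 4 higher). The 9 hair matrix and shaft markers were all higher DEGs. Of all genes tested, 11.4% were higher and 11.0% lower. No marker of these lists was at 0 throughout a group, and their part in the changes of the metalloproteinases and TIMPs was not tested.

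The second comparison, of IMQ + BZLF with IMQ + NS lesions, asks which members differ with BZLF in place of saline. Mmp9 and Mmp13 fell and no member rose. These 2 of 10 stand against 2.20% lower and 0.321% higher DEGs over all 15288 genes. The median log2 fold change was -0.07 over the members and -0.02 over all genes. All values of Mmp9, Mmp13 and Timp1 were lower in IMQ + BZLF than in IMQ + NS, making 3 members without overlap against 10.9% of all genes in that direction and 4.24% in the other.

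Mmp9 had 1.02, 1.32, 0.770 and 1.41 FPKM in IMQ + BZLF, against 3.87, 3.32, 11.1 and 6.82 FPKM in IMQ + NS. The highest BZLF sample lay below the lowest saline sample by more than a factor of 2. Mmp9 fell by 2.25 on the log2 scale (SE 0.36, adjusted p = 0.00952), and the ratio of the means was 0.180. It was called in all 19 alternatives, with log2 fold changes of -2.49 to -1.66 and adjusted p values of 0.00375 to 0.0335. Among the members it was the only one with a call that held in every alternative of this comparison.

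Mmp13 had 0.0578, 0.204, 0.142 and 0.128 FPKM in IMQ + BZLF, against 0.697, 0.293, 2.24 and 1.75 FPKM in IMQ + NS. The BZLF samples lay within or below the control range of 0.0963 to 0.252. Mmp13 fell by 2.25 on the log2 scale (SE 0.52, adjusted p = 0.0372). This call was less steady, since it held in 1 of 8 fits without a sample, that without IMQ + NS replicate 2 (adjusted p = 0.0125). Without IMQ + NS replicate 1, 3 or 4 or any single IMQ + BZLF sample the log2 fold change was -2.40 to -1.88 and the adjusted p 0.052 to 0.0995.

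Timp1 had 8.66, 16.7, 17.1 and 13.3 FPKM in IMQ + BZLF, each below the lowest IMQ + NS value of 18.4. The log2 fold change was -0.71 (SE 0.21, 95% confidence interval -1.19 to -0.24). In the main setting it passed neither the p threshold, at adjusted p = 0.0794, nor the fold limit. Timp1 was not a DEG in any of 19 alternatives, where the limma adjusted p ran from 0.0113 to 0.209 and the log2 fold change from -0.83 to -0.50.

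The other 7 members were not called, and their intervals bound what these samples could show. Mmp2, at 95.3, 175, 183 and 168 FPKM, gave -0.05 (95% confidence interval -0.50 to 0.39), and Mmp14, at 75.5, 111, 109 and 125 FPKM, gave -0.08 (-0.39 to 0.23). IMQ + BZLF replicate 1 was the lowest sample for both, and without it the values were 0.16 and 0.07. Mmp3, at 29.4, 57.3, 52.5 and 30.2 FPKM, gave -0.27 (-0.91 to 0.36).

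Mmp12 was the member with the widest interval among those not called. Its BZLF samples, at 0.574, 2.02, 1.03 and 1.40 FPKM, gave a log2 fold change of 0.75 (-0.28 to 1.77). Of the inhibitors, Timp2, at 131, 191, 188 and 179 FPKM, gave 0.25 (-0.01 to 0.52). Without IMQ + BZLF replicate 1 Timp2 gave 0.38 with adjusted p = 0.0133, under the fold limit. Timp3, at 68.2, 77.5, 72.9 and 82.0 FPKM, and Timp4, at 6.43, 5.44, 6.35 and 7.50 FPKM, each gave 0.06, with intervals of -0.09 to 0.20 and -0.31 to 0.42.

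**Figure D2:**
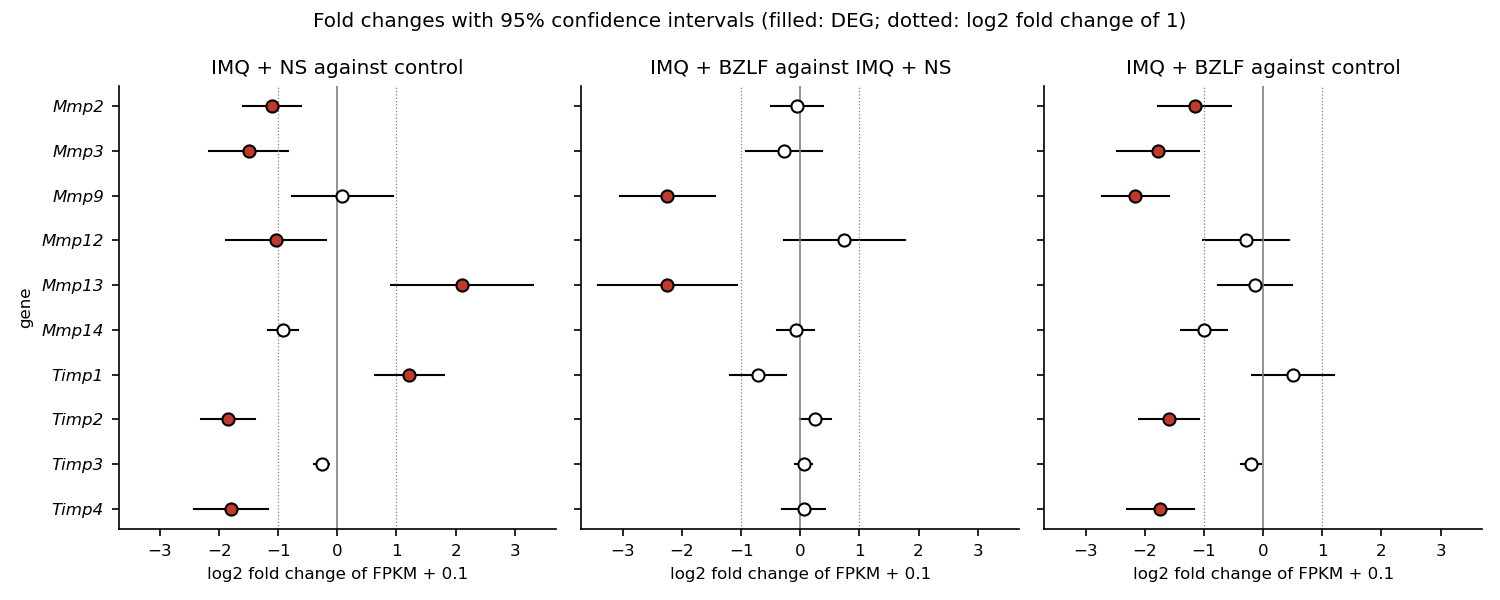
Log2 fold changes of FPKM + 0.1 for the 10 genes (points) with 95% confidence intervals (lines) in the 3 comparisons, filled where the gene is a DEG, with dotted lines at a log2 fold change of 1 in either direction. Mmp9 and Mmp13 are the filled points between the 2 IMQ groups, both at -2.25, and Mmp9 is unfilled at 0.08 between IMQ + NS and control.

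The last comparison, of IMQ + BZLF lesions with normal skin, asks which members still differed from normal skin. The DEGs were 5, all lower, namely Mmp2, Mmp3, Mmp9, Timp2 and Timp4, against 10.1% lower and 9.65% higher of all genes. The control samples are those of the first comparison, so the values of both are set side by side and not counted as agreement. Timp2 was at -1.59 (adjusted p = 6.13e-04), after -1.85 in IMQ + NS, and Timp4 at -1.74 (adjusted p = 7.21e-04), after -1.79. Mmp3 was at -1.77 (adjusted p = 0.00161), after -1.5.

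Mmp9 was below normal skin in the IMQ + BZLF group, at -2.16 on the log2 scale (SE 0.25, adjusted p = 2.63e-04). Every BZLF sample, the highest at 1.41 FPKM, lay below every control, the lowest at 3.52 FPKM. It was called in all 19 alternatives, at -2.35 to -1.58.

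Mmp2 was at -1.16 (SE 0.27, adjusted p = 0.00725), and without IMQ + BZLF replicate 1 at -0.94 (adjusted p = 0.0145), under the fold limit. Mmp14 lay just short of the fold limit, at -0.9989 with adjusted p = 0.00153, and passed it in 7 of 19 alternatives, 5 of them fits without 1 sample (control replicate 1 or 2, or IMQ + BZLF replicate 2, 3 or 4, at -1.09 to -1.03). Timp3 was at -0.21 (adjusted p = 0.0415). The 3 members that passed neither limit were Mmp12, at -0.29 (-1.01 to 0.43), Mmp13, at -0.14 (-0.76 to 0.48), and Timp1, at 0.50 (-0.19 to 1.197). The groups did not overlap for 7 members, all lower, against 28.1% of all genes, and without control replicate 2 the lower DEGs were 6.

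Among neutrophil markers the IMQ + BZLF samples summed to 11.7 to 19.9 FPKM, over the range of the controls (15.1 to 18.6 FPKM) and below that of IMQ + NS (44.6 to 97.1 FPKM). Of these 12 markers, 10 were lower DEGs in IMQ + BZLF against IMQ + NS, where 2.20% of all genes were lower, and Mpo was higher. IMQ + NS replicate 3 had the highest neutrophil sum and the highest Mmp9, Mmp13, Mmp8, Mmp25 and Lcn2. The other samples of that group did not keep a shared order. IMQ + NS replicate 2 had the lowest Mmp9, Mmp13, Mmp8 and Mmp25 of the group, but its Lcn2, at 124 FPKM, lay above replicates 1 and 4. Its neutrophil sum was 60.9 FPKM, above the 44.6 FPKM of replicate 1. Against the controls, IMQ + BZLF had 2 neutrophil markers higher, Ngp and Camp, and 2 lower, Retnlg and Mpo, so the sum joins markers of opposite direction. Mpo, myeloperoxidase, was at 5.26 to 8.86 FPKM in the controls and 1.84 to 2.64 FPKM in IMQ + BZLF, and Camp, cathelicidin, at 0.645 to 1.75 and 4.90 to 9.34 FPKM. The macrophage markers summed to 841 to 1277 FPKM in IMQ + BZLF, with 1 of 12 a lower DEG against IMQ + NS. The fibroblast sum was 531 FPKM in IMQ + BZLF replicate 1 and 861 to 894 FPKM in the other 3, none of the 10 markers being called against IMQ + NS. The hyperproliferative keratinocyte markers summed to 1139.8 to 1392 FPKM in IMQ + BZLF, with 3 of 4 lower DEGs against IMQ + NS and a median log2 fold change of -3.40. The basal keratinocyte markers summed to 1684 to 2362 FPKM, with 1 of 7, Krt14, a lower DEG. The part of these markers in the fall of Mmp9 and Mmp13 was not tested.

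**Figure D3:**
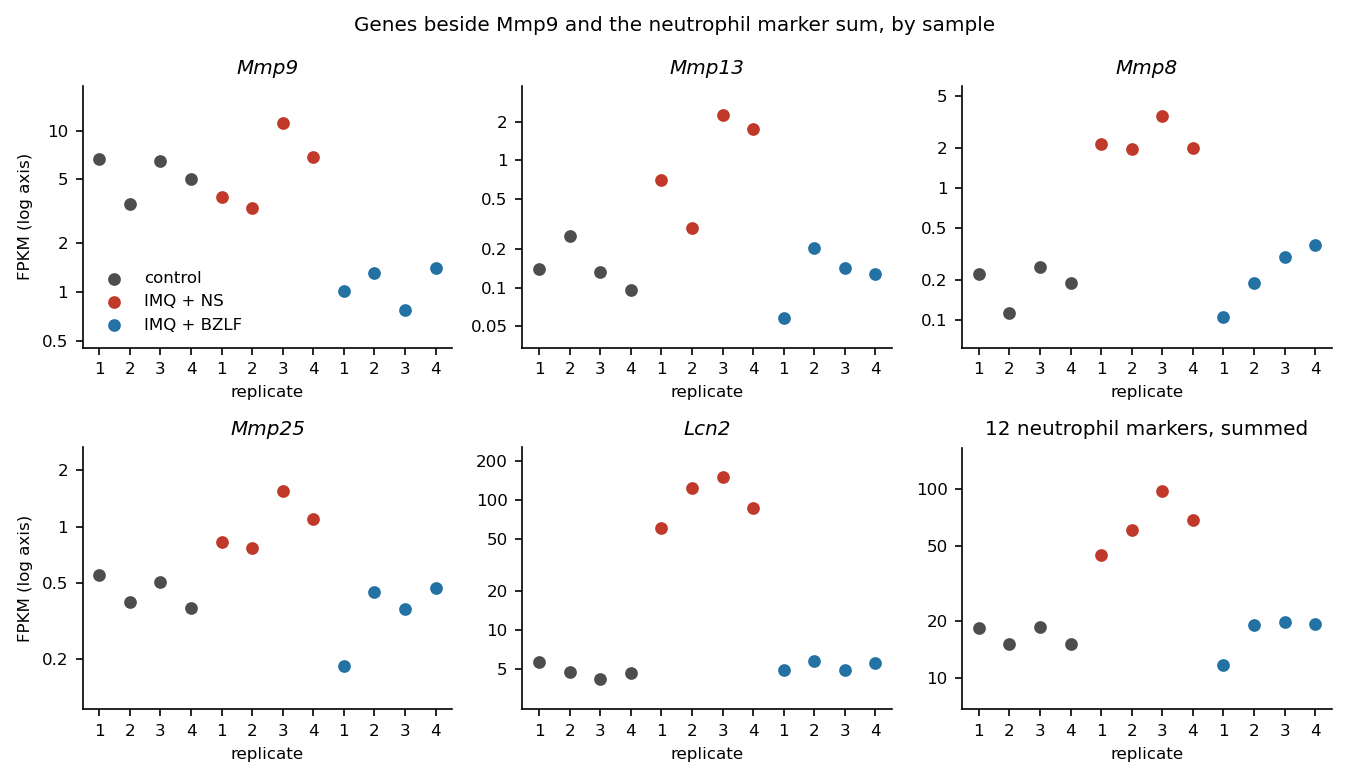
FPKM on log axes of Mmp9, Mmp13, Mmp8, Mmp25, Lcn2 and the sum of 12 neutrophil markers in each of the 12 samples (points, by replicate within group). Mmp8, Lcn2 and the neutrophil sum lie higher in all IMQ + NS samples than in both other groups, whereas Mmp9 is lower in the IMQ + BZLF samples than in both others.

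The remaining metalloproteinases gave calls of both kinds too. Of 17 listed, 16 were in the table and 10 were tested. In IMQ + NS against control, 3 were higher and 3 lower, against 11.4% and 11.0% of all genes. Mmp8, neutrophil collagenase, went from 0.194 ± 0.0600 to 2.40 ± 0.723 FPKM, which is 3.07 on the log2 scale (adjusted p = 2.05e-05), and Mmp11, stromelysin 3, from 5.98 ± 1.91 to 27.3 ± 7.04 FPKM (2.18, adjusted p = 1.61e-04). Mmp27 fell by 2.30 and Mmp23 by 1.97 on the log2 scale (adjusted p = 6.27e-05 and 1.88e-05). Mmp25, a membrane-anchored enzyme of leukocytes at 1.02, and Mmp17, at -1.14, were the others, named here after their values were seen. In IMQ + BZLF against IMQ + NS, 2 of the 10 were lower, Mmp8 by 2.90 (adjusted p = 0.00138) and Mmp25 by 1.32 (adjusted p = 0.0267), and none was higher. Of all genes, 2.20% were lower and 0.321% higher there. With BZLF against control, 3 were lower, Mmp17, Mmp23 and Mmp27, and none higher, against 10.1% and 9.65% of all genes.

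Along chromosome 9 the cluster holds 10 metalloproteinase genes in 427 kb (chr9:7272514-7699585) with no other protein-coding gene between them, and 5 of them passed the filter. The gene at its start, Mmp13, and the seventh, Mmp8, rose with IMQ and fell with BZLF against saline, comparisons that share the IMQ + NS samples. Mmp12, Mmp3 and Mmp27, which lie between and beyond them, fell with IMQ and were not called between the IMQ groups. Neighbours in this cluster therefore differed in direction, as Mmp8 and Mmp27 did. The 5 untested genes, Mmp1b, Mmp1a, Mmp10, Mmp20 and Mmp7, had group means of at most 0.132 FPKM. Mmp12 also overlaps Mmp1b on the opposite strand.

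**Figure D4:**
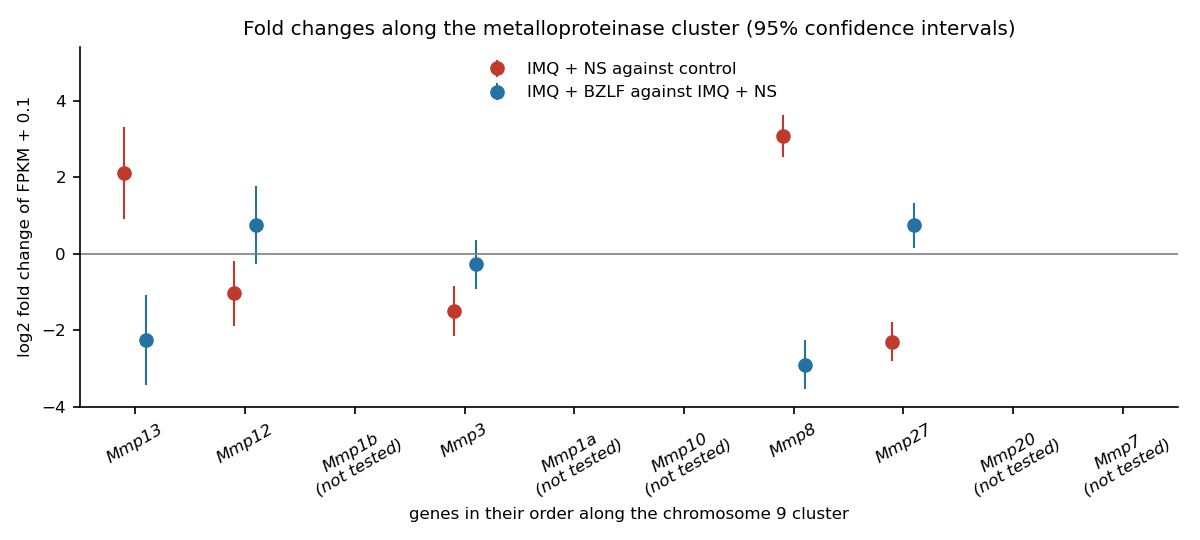
Log2 fold changes of FPKM + 0.1 with 95% confidence intervals for the 5 tested of the 10 genes of the chromosome 9 cluster, with the other 5 marked as not tested, in their order along the chromosome, for IMQ + NS against control and IMQ + BZLF against IMQ + NS. Mmp13 and Mmp8 are the genes with positive values in the first comparison, 2.11 and 3.07, and negative values in the second, -2.25 and -2.90.

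Summed over the 6 metalloproteinases, the level was 709.8 ± 178 FPKM in the controls, 326 ± 40.1 in IMQ + NS and 305 ± 69.7 in IMQ + BZLF. Mmp2, Mmp3 and Mmp14 made up 97.5% to 99.2% of this sum in the group means, so Mmp9, Mmp12 and Mmp13 were a small share of it in all groups. The 4 TIMPs summed to 653 ± 150, 244 ± 11.98 and 268 ± 35.6 FPKM. Metalloproteinase per TIMP was 1.09 ± 0.080, 1.33 ± 0.149 and 1.13 ± 0.128. The make-up of the TIMP sum differed more, since Timp2 took 80.8% ± 4.99 of it in the controls, 58.6% ± 1.04 in IMQ + NS and 64.1% ± 2.28 in IMQ + BZLF. Timp3 took 13.9% ± 3.50, 29.6% ± 1.09 and 28.3% ± 2.75, though its own level was not higher in the IMQ groups. Timp1 took 1.7% ± 1.03, 9.15% ± 1.21 and 5.13% ± 0.919. Within enzyme and inhibitor pairs, Mmp2 per Timp2 was 0.654 ± 0.0413, 1.10 ± 0.115 and 0.888 ± 0.112, and Mmp9 per Timp1 was 0.615 ± 0.273, 0.281 ± 0.143 and 0.0870 ± 0.0324. These sums and ratios are descriptions with no test.

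**Figure D5:**
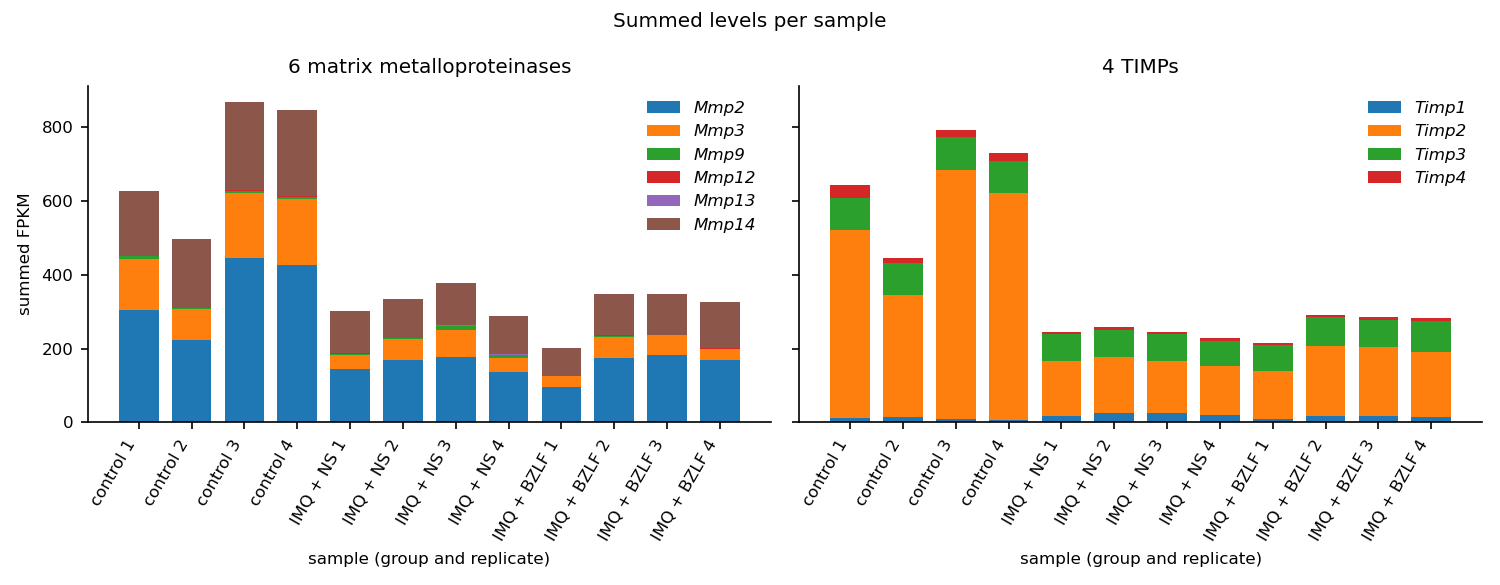
Stacked FPKM of the 6 metalloproteinases (left) and the 4 TIMPs (right) in each of the 12 samples. Mmp2, Mmp14 and Mmp3 make up nearly the whole of each left bar, so that the bars of Mmp9, Mmp12 and Mmp13 are hardly visible, and the Timp2 part of the right bars is largest in the controls.

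Of 20 activators and regulators, 17 were tested. In IMQ + NS against control 2 were higher and 3 lower, against 11.4% and 11.0% of all genes. Lcn2 encodes lipocalin 2, which the study proposes to act in an axis with MMP-9. Lcn2 was at 5.63, 4.69, 4.17 and 4.65 FPKM in the controls and 60.5, 124, 148 and 86.2 FPKM in IMQ + NS. In IMQ + BZLF it was at 4.86, 5.77, 4.93 and 5.58 FPKM. Its log2 fold changes were 4.35 (adjusted p = 4.51e-06) with IMQ and -4.21 (adjusted p = 8.26e-05) with BZLF against saline, and 0.14 (adjusted p = 0.329) for BZLF against control. Against control, Lcn2 was thus called in IMQ + NS and Mmp9 in IMQ + BZLF, and the difference between these genes was not tested. Thbs1, thrombospondin 1, rose by 1.45 (adjusted p = 0.00292). Reck, a membrane-bound inhibitor of metalloproteinases, and Serpine2, an inhibitor of serine proteases, fell by 1.34 and 1.26 (adjusted p = 3.91e-04 and 2.69e-04). Between the IMQ groups 1 of the 17, Lcn2, was called, as lower, against 2.20% of all genes.

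Of the related ADAM and ADAMTS proteases, 1 of 17 was higher (Adam12, at 1.62, groups overlapping) and 1 lower (Adamts2, procollagen N-proteinase, at -1.64) in IMQ + NS against control. Adam8, a leukocyte enzyme, was the only one called between the IMQ groups, at -1.39 (adjusted p = 0.021), where 2.20% of all genes were lower. Of 17 matrix substrates, 4 were higher and 5 lower in IMQ + NS. The shares over all genes in IMQ + NS against control, for the proteases and the substrates alike, were 11.4% higher and 11.0% lower. Tnc, tenascin C, rose by 4.38 (adjusted p = 3.65e-04), and Sparc, Col1a2 and Col1a1 fell by 2.49, 2.24 and 2.10. Against IMQ + NS the BZLF samples had lower Tnc (-1.28, adjusted p = 0.0119), and Sparc, Col1a2 and Col1a1 were at 0.80, 0.86 and 0.81 with adjusted p values of 0.0534 to 0.0606.

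For the 8 members called in at least 1 comparison, the genes with the most alike pattern were sought among all genes with a mean of at least 1 FPKM. Likeness was the root mean square difference of log2(FPKM + 0.1) over the 12 samples after each gene was centred on its mean, which makes it a description over shared libraries and groups. For Mmp9, whose own SD was 1.14, they were Slc16a3 (0.41), Il33 (0.43) and Slfn1 (0.47). These genes were picked for likeness to Mmp9 in the same samples, so calls shared with Mmp9 follow largely from the choice. Each was a lower DEG with BZLF against saline, at -1.57 (Slc16a3), -2.08 (Il33) and -2.21 (Slfn1), and was not called with IMQ. Mmp13 (own SD 1.22) lay nearest to Fpr2 (0.47), Pilra (0.50) and Cd72 (0.50).

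Timp2 (own SD 0.86) lay closest of all to its neighbours, Cd74 (0.11), Klhl33 (0.12) and Scara3 (0.12). Timp4 (own SD 0.90) lay nearest to Plin1 (0.17), Tmem182 (0.20) and Adipoq (0.21), and Plin1 and Adipoq are on the adipocyte marker list. For Timp1 (own SD 0.63) the genes were Pla2g7 (0.29), Ier5l (0.31) and Apobec1 (0.31). Mmp2 (own SD 0.63) lay nearest to Hsd17b11 (0.14), BC028528 (0.16) and Prss23 (0.16), and Mmp3 (own SD 0.89) to Clca3a1 (0.22), Ang (0.23) and Dpyd (0.24). Mmp12 (own SD 0.70) lay nearest to Mfap4 (0.25), Fa2h (0.27) and Panx3 (0.29).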

How the data were processed

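The deposited table held FPKM values for 18505 genes in 12 samples of mouse skin, which the authors computed, with no counts. The methods describe mirVana extraction, a TruSeq stranded ribosomal RNA depletion kit, alignment with Bowtie2 to transcripts and eXpress for quantification, whereas the labels give TRIzol and a VAHTS kit, and the submitters' processing notes name fastp, HISAT2, HTSeq, R 3.2.0 and mm10. Which account made the table is not settled here. FPKM sums to no fixed total, so a sample's values move with the share taken by its most abundant genes.

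A constant of 0.1 was added to each FPKM before taking log2, and 15288 genes whose mean over the 12 samples reached 0.1 FPKM were kept. Each pair of groups was compared with limma 3.58.1 in R 4.3.3 (moderated variances with a trend, two-sided, Benjamini-Hochberg adjustment over all genes tested). The study tested counts with DESeq2, which FPKM values do not allow. DEGs were those under 0.05 in adjusted p whose log2 fold change passed 1 in either direction. The procedure was run on simulated data with changes well above the fold limit in more highly expressed genes. That run does not bear on genes as low as Mmp13 or on changes near the limit. The members and gene lists were chosen with earlier results of these data known. All members are named, up to 4 genes of each other list (DEGs with the largest fold change, plus Lcn2), and 3 like patterns per called member. Beyond this rule, Mmp25, Mmp17 and single markers of cell types were named after their values were seen. The labels name no batch. Locations are from GENCODE M21 (GRCm38) and promoters from RefSeq (GRCm38.p6). Python 3.11.15 and matplotlib 3.10.9 drew the figures. Alternatives were another constant (0.01 or 1), no filter or a mean FPKM of at least 1, other scalings, a joint fit, other moderation, a replicate block and leaving out each sample.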

Additional observations from a re-analysis of the deposited data

Results flagged for a closer look

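Mmp2 in IMQ + BZLF replicate 1 was 95.3 FPKM, far below the other 3 samples of its group at 168 to 183 FPKM, the gap to the nearest being 0.865 of the group's range on the log2(FPKM + 0.1) scale. It was the only value of the 10 members to pass on that scale Dixon's 95% limit in 30 groups of 4 samples, where chance gives about 1.5 (1 in 20). On FPKM itself the gap was 0.824 of the range, and 0 of the 30 groups passed. The same sample had the lowest value of its group in every member except Mmp9 and Timp4. It also had the group's lowest fibroblast, neutrophil, macrophage, endothelial, adipocyte, basal keratinocyte and skin identity marker sums. Its skeletal muscle and hyperproliferative keratinocyte sums were not the lowest, and its hair matrix and shaft sum, 11446 FPKM, was the highest.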

How the results depend on the processing

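Of 567 recomputed member values, 520 kept their direction and their side of the DEG rule, 23 lost the call, 9 gained it and 15 changed sign, none of the last being a called value. The sign changes were as follows, and the cause was not tested. For IMQ + NS against control, Mmp9 was at -0.046 with samples rescaled to equal sums and -0.064 after quantile normalization, and ran from -0.24 to 0.33 on leaving out 1 sample, with negative values on dropping control replicate 2 (-0.11), IMQ + NS replicate 3 (-0.24) or IMQ + NS replicate 4 (-0.0087). For IMQ + BZLF against IMQ + NS, Mmp2 was at 0.0014 with median ratio scaling and 0.0056 after quantile normalization. On leaving out 1 sample Mmp2 ran from -0.15 to 0.16 (positive on dropping IMQ + BZLF replicate 1, 0.16, or IMQ + NS replicate 3, 0.0086), Mmp14 from -0.17 to 0.075 (positive on dropping IMQ + BZLF replicate 1) and Timp4 from -0.072 to 0.17 (negative on dropping IMQ + NS replicate 3, or IMQ + BZLF replicate 4, -0.019). For IMQ + BZLF against control, Mmp13 ran from -0.28 to 0.036 (positive on dropping IMQ + BZLF replicate 1, or control replicate 2, 0.027) and Mmp12 from -0.54 to 0.0075 (positive on dropping IMQ + BZLF replicate 1).

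A constant of 1, which shrinks low genes by construction, gave 1023 lower DEGs in IMQ + NS against control (1678 with 0.1) with 1 member higher, 17 higher and 188 lower DEGs between the IMQ groups (49 and 336) with 1 member lower, and 979 higher and 865 lower DEGs in IMQ + BZLF against control (1475 and 1542). A mean FPKM of at least 1 left Mmp13 untested, hence 1 member higher in IMQ + NS against control and 1 lower between the IMQ groups. No filter and no trend also left 1 member lower between the IMQ groups, Mmp9. Leaving out each sample in turn gave, in IMQ + NS against control, 1507 to 2196 higher and 1583 to 1871 lower DEGs, with 1 to 2 members higher and 3 to 5 lower. Between the IMQ groups it gave 19 to 78 higher and 227 to 350 lower DEGs with 1 to 2 members lower, and in IMQ + BZLF against control 1267 to 1939 higher and 1279 to 1811 lower DEGs with 4 to 6 members lower. Other settings kept these counts within 1.5 times. Rescaling to equal sums moved the median of all genes from 0.05 to -0.07 in IMQ + NS against control and from -0.02 to -0.12 in IMQ + BZLF against control.

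The deviations of same-numbered samples correlated at -0.15 to 0.26 over 12 pairs. The 6 pairs above 0.1 were all of replicates 3 or 4, and 6 of 12 samples matched their own number best. These values do not settle whether the numbers mark a pairing. The labels give none, and the main fits used none. With the replicate block, IMQ + NS against control had 1730 higher and 1684 lower DEGs (2 and 5 members), the IMQ groups 47 and 335 (0 and 2 members) and IMQ + BZLF against control 1457 and 1527 (0 and 5 members). The table gives no fragment counts, so no counting error was computed for Mmp13 and Mmp12.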
